A study of Mus musculus with 5 samples.

Results

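The genes described here are the 8 that carry the core of MHC class II antigen presentation: H2-Aa, H2-Ab1, H2-Eb1, Cd74, H2-DMa, H2-DMb1, H2-DMb2 and Ciita. A gene was counted as measured where the platform annotation gave a probe set to that gene alone, and where several such probe sets existed the brightest would have stood for it. By this rule 6 of the 8 genes were measured, each by 1 probe set, out of 19938 genes on the array. H2-DMb1 and H2-DMb2 share a single probe set that is annotated to both, so neither has a value of its own. Levels were read in the liver of 5 male wildtype C57BL/6N mice aged 5 to 6 months, with 1 Affymetrix array of total RNA per mouse. All 5 mice had received streptozotocin, which destroys insulin-producing beta cells and models type 1 diabetes, by injection of 65 mg/kg on 5 days at an age between 10 and 16 weeks. All 5 were then fed bezafibrate, a lipid-lowering fibrate that activates PPAR nuclear receptors, for 8 weeks from 2 weeks after the injections. The chow held either 0.25% or 0.5% of the drug, and the labels do not say which one a given mouse ate. Mice without streptozotocin or without bezafibrate were not analysed here, so the values show the level in doubly treated livers and the spread between animals, not the effect of a compound.

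MHC class II molecules display peptides from engulfed material to CD4+ T cells. They are pairs of an alpha and a beta chain that assemble in the endoplasmic reticulum on the invariant chain (Cd74), travel to endosomes, and take up peptide with the help of the DM exchange factor (H2-DMa with an H2-DMb chain). Ciita is the coactivator that switches the whole set on: it binds no DNA itself and docks on RFX, CREB and NF-Y proteins at the promoters. In liver these genes are known chiefly from Kupffer cells and other macrophages, dendritic cells and B cells, with lower amounts in sinusoidal endothelium, while resting hepatocytes carry little.

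The promoters on which Ciita acts hold an X box, bound by RFX, and a Y box, bound by NF-Y, close to the transcript start. RefSeq promoter windows of assembly GRCm38.p6 (250 bases before to 50 after each start) were at hand for 5 of the 8 genes, namely H2-Aa, H2-Eb1, H2-DMa, H2-DMb1 and H2-DMb2. Each window was searched on both strands for ATTGG, the core of the Y box, for GCAAC, a short stretch of the X box, and for GCAAC followed on the same strand by ATTGG after 10 to 35 bases. The stretches around the Y box core are shown 5′ to 3′ for H2-Aa, H2-Eb1, H2-DMb1, H2-DMb2 and H2-Ob, with each motif in capitals where it occurs. H2-DMa is not shown, and its windows are described below.
H2-Aa: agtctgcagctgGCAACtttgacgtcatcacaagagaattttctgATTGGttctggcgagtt
H2-Eb1: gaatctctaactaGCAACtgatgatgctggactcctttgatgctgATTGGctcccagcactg
H2-DMb1: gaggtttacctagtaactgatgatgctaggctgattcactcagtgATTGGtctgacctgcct
H2-DMb2: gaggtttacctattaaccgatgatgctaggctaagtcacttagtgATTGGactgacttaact
H2-Ob: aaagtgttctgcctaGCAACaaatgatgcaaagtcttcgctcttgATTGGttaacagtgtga
The H2-Aa stretch lies at chr17:34287855-34287916 on the minus strand. The others lie on the plus strand, at chr17:34305763-34305824 for H2-Eb1, chr17:34153085-34153146 for H2-DMb1, chr17:34145114-34145175 for H2-DMb2 and chr17:34238803-34238864 for H2-Ob, which encodes the beta chain of the DM inhibitor DO.

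The spaced pair of motifs stood in the windows of H2-Aa and H2-Eb1, with 28 and 27 bases between the motifs, and in those of H2-Ob, H2-Oa and H2-Eb2, with 25, 28 and 27 bases. Among all 32851 promoter windows of the same length, 1.22% held the pair, 37.4% held ATTGG alone or in the pair, and 35.2% held GCAAC. The windows of H2-DMb1 and H2-DMb2 held ATTGG and not GCAAC, and 53 of the 62 bases of their stretches shown above were identical. The search was for exact letters, so a window without GCAAC may still hold an X box. In the H2-DMb1 stretch, gtaac stands before tgatgatgct, where H2-Eb1 has GCAAC. H2-DMa has a pair of windows, of which 1 held only GCAAC on the opposite strand, 7 bases before the start, and the other only ATTGG, 198 bases before the start. These matches describe letters in a window and no binding was measured.

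The values are log2 signals after RMA, which corrects the background, aligns the arrays and summarises the probes of each probe set. A step of 1 on this scale doubles the signal. A brightness floor was set on each array at the 95th percentile of 1210 probe sets for olfactory and vomeronasal receptor genes, and lay between 5.59 and 6.07. The floor of 6.07 was that of mouse 4, and those of the other mice lay between 5.59 and 5.79. With 1 array per mouse, a trait of an array and a trait of a liver cannot be told apart. On this scale 5 of the 6 measured genes exceeded the floor in all 5 livers, as did 60.0% of all genes. The exception was Ciita, which exceeded it in 4. Probes differ in how brightly they read, so levels are compared between mice and never between genes.

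The I-A molecule is the class II heterodimer that C57BL/6 mice display. Its alpha chain gene, H2-Aa, had values of 9.56, 8.92, 9.33, 9.22 and 9.46 in mice 1 to 5. Mouse 1 was highest and mouse 2 lowest, a 1.56-fold span, and the mean was 9.30 ± 0.25 (SD, n = 5). The beta chain gene, H2-Ab1, had 8.88, 8.39, 8.77, 8.44 and 8.62, a mean of 8.62 ± 0.21 and a 1.40-fold span. Mouse 1 was again highest and mouse 2 lowest, with mouse 4 close to mouse 2. Measured from their own means, the alpha and beta chain genes stood equally high in mouse 1 (0.26 for each), while in mouse 2 the alpha chain gene lay lower (-0.38 for H2-Aa and -0.23 for H2-Ab1).

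H2-Eb1 encodes the beta chain of the other classical heterodimer, I-E. It had values of 8.50, 8.30, 8.64, 8.33 and 8.56 in mice 1 to 5, with a mean of 8.47 ± 0.14 (SD, n = 5) and a 1.26-fold span. Mouse 3 was highest and mice 2 and 4 were lowest. The partner of H2-Eb1, the I-E alpha chain gene H2-Ea, is classed as a transcribed pseudogene in the RefSeq table, and C57BL/6 mice are known not to make the I-E protein. H2-Ea had values of 4.33, 4.46, 4.51, 4.50 and 4.46, below the floor on all 5 arrays, whereas the H2-Eb1 probe set exceeded it on all 5. The related beta chain gene H2-Eb2 also stayed below the floor on every array (5.13 to 5.47).

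Cd74 encodes the invariant chain, which guides the class II pair to endosomes and fills its groove on the way. Its values were 9.24, 8.91, 9.26, 8.88 and 9.35 in mice 1 to 5, with a mean of 9.12 ± 0.22 (SD, n = 5) and a 1.39-fold span. Mice 1, 3 and 5 lay close together, and mice 2 and 4 lay together below them.

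The DM exchange factor did not follow a single order of mice across its genes. H2-DMa, its alpha chain gene, had 7.28, 6.96, 6.81, 6.94 and 7.28, a mean of 7.05 ± 0.21 (SD, n = 5). Mice 1 and 5 were high, as for H2-Aa, but mouse 3 was the lowest, 0.24 below the mean of the gene. The probe set shared by H2-DMb1 and H2-DMb2, the beta chain genes, had 6.68, 6.35, 6.83, 6.44 and 6.68, a mean of 6.60 ± 0.19, and there mouse 3 was the highest, 0.23 above the mean. The 1.39-fold spans of H2-DMa and of this probe set were alike in size, with mouse 3 at opposite ends. How the signal of the shared probe set divides between H2-DMb1 and H2-DMb2 is not known.

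Ciita, the coactivator gene, spread least among the 6 measured genes. Its values were 5.91, 5.79, 6.03, 5.93 and 5.96 in mice 1 to 5, with a mean of 5.93 ± 0.09 (SD, n = 5) and a 1.18-fold span. Mouse 3 was highest and mouse 2 lowest, and the value of mouse 4 lay below the floor of that array (6.07).

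**Figure D1:**
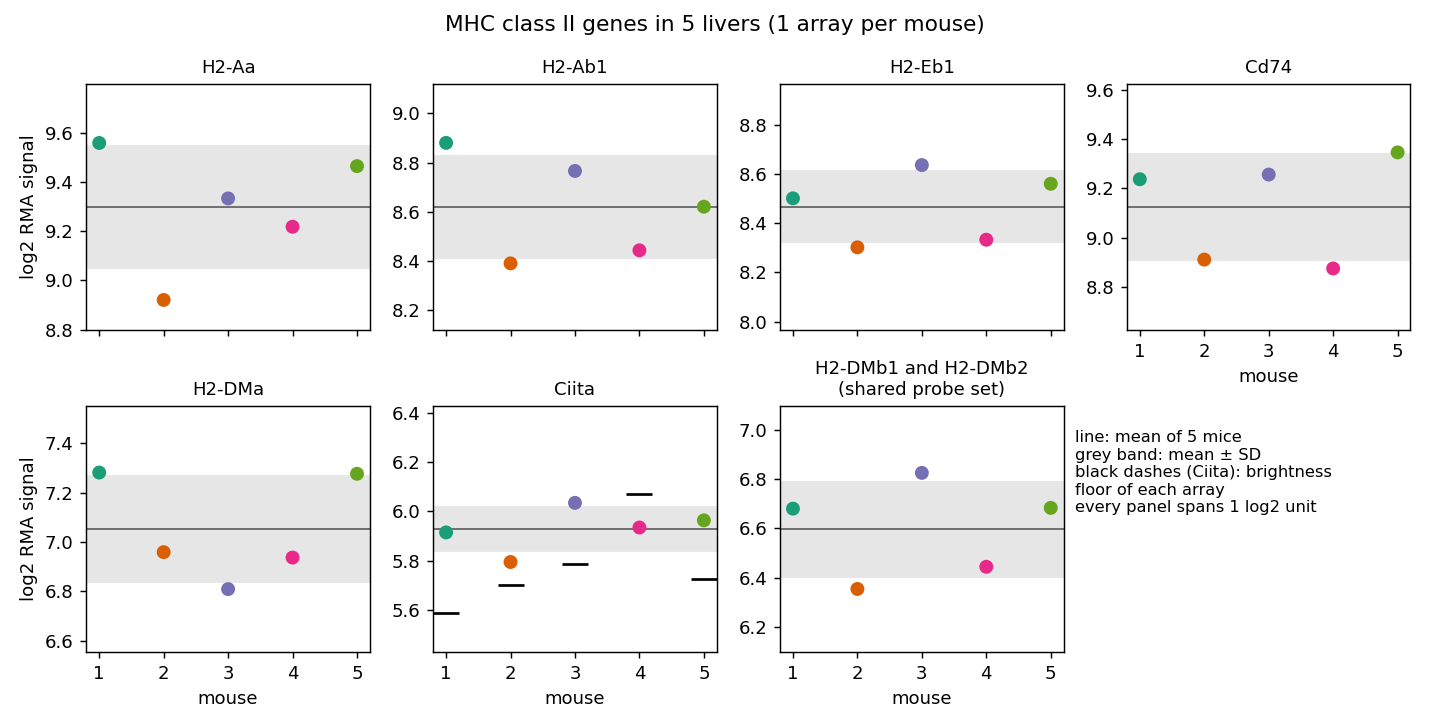
Deposited log2 RMA signal of the 6 measured class II genes and of the probe set shared by H2-DMb1 and H2-DMb2 in each of the 5 mice; the line is the mean, the grey band the mean ± SD, and the black dashes in the Ciita panel the brightness floor of each array. Mouse 2 lies below the mean line in every panel, and every panel spans the same height of 1 log2 unit.

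With 1 treatment group, the test the design allows is whether a gene differed more between the livers than others of its level. The variance over the 5 arrays was divided by the variance that limma expects at that mean, with an upper-tail F test and Benjamini-Hochberg adjustment over 14586 probe sets of 13336 genes. By this test 0 of the 6 class II genes passed an adjusted p of 0.05, against 0.357% of all probe sets tested (52 of 14586). At an unadjusted p under 0.05 there was 1 gene, H2-Aa, against 6.34% of all probe sets. With 5 arrays the test has little power, so not passing does not show that a gene spread no more than others of its level.

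The largest excess was that of H2-Aa, whose SD of 0.25 compares with an expected 0.11 (limma F test, adjusted p = 0.740). Without mouse 2 the SD was 0.15 for H2-Aa and 0.05 for Ciita. Cd74 followed (SD 0.22, expected 0.11, limma adjusted p = 0.901), then H2-Ab1 (0.21, expected 0.12, limma adjusted p = 0.967) and H2-DMa (0.21, expected 0.13, limma adjusted p = 0.982). The SD of H2-Eb1 (0.14) was near its expected 0.12, and that of Ciita (0.09) was below its expected 0.13. Among tested genes whose mean lay within 0.5 of its own, 93.4% had a smaller SD than H2-Aa, 89.8% than Cd74, 88.0% than H2-DMa, 87.7% than H2-Ab1, 68.1% than H2-Eb1 and 25.2% than Ciita. The median SD of the 6 genes was 0.21, beside 0.12 over all 13336 tested genes.

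**Figure D2:**
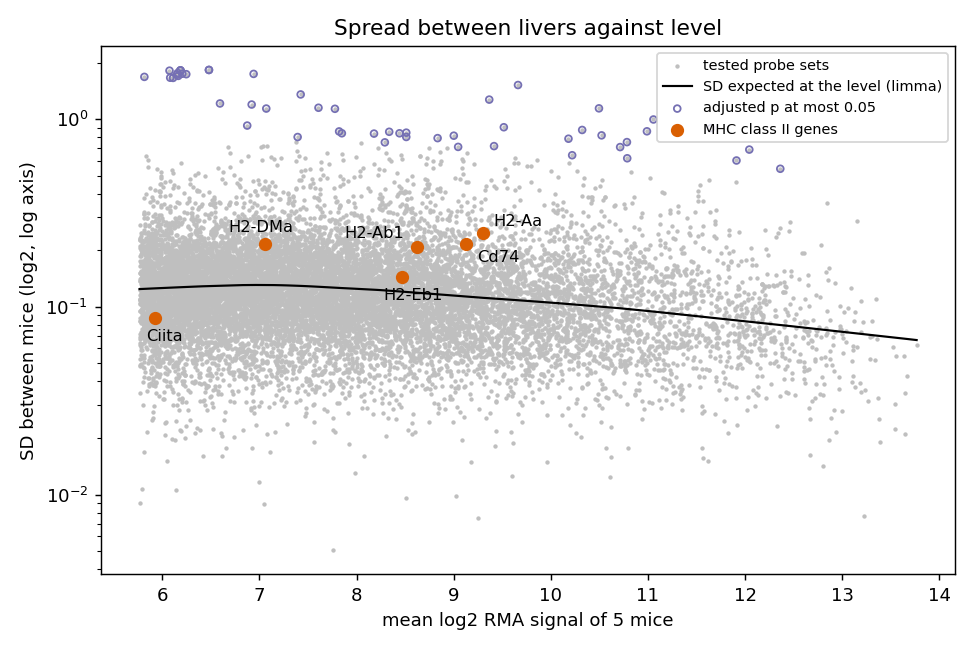
SD between the 5 mice (log axis) against mean log2 signal for every tested probe set (grey), with the SD expected by limma at each level (line), probe sets with an adjusted p of at most 0.05 (open circles) and the 6 class II genes (orange). H2-Aa, Cd74, H2-Ab1 and H2-DMa lie above the line but below the probe sets that passed, H2-Eb1 near the line and Ciita below it.

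To follow the 6 genes together, the mean of each gene was subtracted from its values and the results were averaged within each liver. The average was 0.15 in mouse 1, -0.20 in mouse 2, 0.06 in mouse 3, -0.12 in mouse 4 and 0.12 in mouse 5, a range of 0.35. All 6 genes lay below their own mean in mouse 2. In mouse 5, 5 of 6 lay above it and H2-Ab1 lay at its mean (a deviation of 0.0006). In mouse 1 and in mouse 3, 5 of 6 lay above it, and in mouse 4 the count was 1 of 6. Over all tested genes the same average ran between -0.06 in mouse 4 and 0.03 in mouse 1. The median deviation of all tested genes was 0.03, 0.03, 0.01, -0.06 and -0.01 in mice 1 to 5. The share of them above or below their own mean was not counted.

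Mouse 2 had the lowest value of 4 of the 6 genes, against 11.4% of tested genes that were lowest there. The lowest value lay in mouse 2 or mouse 4 for 5 of the 6, against 48.0% of tested genes. Mouse 1 had the highest value of 3 of the 6, against 23.9% of tested genes. For H2-Aa, H2-Ab1, H2-Eb1 and Cd74, 4 of the 6 genes, mice 2 and 4 held the lowest 2 values. This order was found in 11.2% of tested genes. The mice and the order in all of these counts were picked out after the values of the same genes had been seen. The shares beside them are therefore a description and no test. With each array centred on its median, the average was -0.16 in mouse 2 and -0.17 in mouse 4, so which of these livers was lowest depends on the scaling. The genes are read from the same 5 arrays, so they are not independent of each other. In whole liver, fewer cells of a type and less RNA per cell cannot be told apart.

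Likeness between pairs of genes was measured as the root mean square difference of their centred values over the 5 mice, for all 15 pairs. The closest pairs were H2-Eb1 with Ciita (0.08), both with small spreads, H2-Eb1 with Cd74 (0.09), H2-Ab1 with H2-Eb1 (0.11) and H2-Aa with H2-Ab1 (0.12). The farthest 4 pairs were those of H2-DMa with Ciita (0.22), H2-Eb1 and H2-Ab1 (0.21 each) and Cd74 (0.19), and in those 4 the largest gap lay in mouse 3, where H2-DMa was low.

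The proteins on which Ciita docks are encoded by genes of the RFX, NF-Y and CREB groups. All 7 measured genes of these promoter factors exceeded the floor in all livers, 0 passed the limma test and 0 had an unadjusted p under 0.05. Their average deviation was 0.05, 0.05, 0.00, -0.11 and 0.01 in mice 1 to 5, beside 0.03, 0.03, 0.00, -0.06 and 0.00 over all tested genes. Rfxank, an RFX subunit gene, had the widest spread of them, with 8.21, 8.38, 8.32, 7.76 and 8.11 in mice 1 to 5 (limma adjusted p = 0.874). Rfxap, another RFX subunit gene (SD 0.13), and Nfyb, an NF-Y subunit gene (SD 0.12), were also lowest in mouse 4.

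Interferon gamma is the classical inducer of Ciita. Of 10 measured genes of that signal, 7 exceeded the floor in all livers. The limma test covered 7 of the genes, of which 0 passed and 0 had an unadjusted p under 0.05. The cytokine genes Il10 and Il4, which also act on class II expression, were below the floor on every array. The receptor gene Ifngr1 was 9.27, 9.14, 9.06, 9.04 and 9.50 in mice 1 to 5 (SD 0.19), and Irf8, a transcription factor gene of macrophages and dendritic cells, was 7.72, 7.42, 7.52, 7.46 and 7.82 (SD 0.18). For Irf8 the high livers were mice 1 and 5 and the low ones mice 2 and 4. Jak2, of the receptor kinases, was lowest in mouse 5 (7.15).

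Ifi30 spread more than any other gene listed for the endosomal route. It encodes the lysosomal thiol reductase that opens disulfide bonds in antigens, and had 9.37, 9.04, 8.62, 8.64 and 9.82 in mice 1 to 5, a 2.28-fold span. Mouse 5 was highest and mice 3 and 4 were lowest. Its SD was 0.51 with 0.11 expected, which limma gave an unadjusted p of 0.0011 and an adjusted p of 0.131, so it did not pass. It was the 1 gene of 9 on this list with an unadjusted p under 0.05. Ctss, the protease gene known for trimming the invariant chain, had 8.40, 8.01, 8.12, 8.03 and 8.19, highest in mouse 1 and lowest in mice 2 and 4. Lgmn, an endosomal protease gene, was highest in mouse 5 (10.19) and lowest in mouse 3 (9.82). All 9 genes exceeded the floor in all livers.

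DO, the inhibitor of DM, is made chiefly by B cells. Its alpha chain gene H2-Oa was below the floor on every array (5.46 to 5.78), while its beta chain gene H2-Ob had 6.15, 6.08, 6.39, 6.21 and 6.13, above the floor on all 5. Of 9 genes of class II turnover and co-stimulation, 4 exceeded the floor in all livers. The limma test covered 6 of them, and 0 passed it or had an unadjusted p under 0.05. Among them Cd86, a co-stimulatory ligand gene of antigen-presenting cells, had 6.22, 5.94, 5.89, 5.73 and 6.10, and Cd80, the related ligand gene, was highest in mouse 4 (6.28) and lowest in mouse 2 (5.64). Cd83, which encodes a protein that holds class II molecules at the surface, was also highest in mouse 4 (6.10).

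The class II genes on chromosome 17 lie among genes of class I presentation. In the RefSeq order the span from H2-DMa to H2-Eb1 holds 12 genes, 6 of them from the class II set; Cd74 lies on chromosome 18 and Ciita on chromosome 16. The other measured genes in the span were Psmb8 and Psmb9 (immunoproteasome subunits), Tap1 and Tap2 (the peptide transporter) and H2-Ob, a class II gene outside the set. Their average deviation was 0.06, 0.01, 0.22, -0.13 and -0.17 in mice 1 to 5. All 5 of these neighbours lay above their own mean in mouse 3, and 0 of 5 did so in mouse 5. There 5 of the 6 measured genes of the class II set did and H2-Ab1 lay at its mean. Psmb9 had 8.33, 8.32, 8.68, 8.24 and 8.09 in mice 1 to 5, Psmb8 had 6.52, 6.30, 6.69, 6.06 and 6.16, and Tap1 had 7.90, 7.76, 7.71, 7.33 and 7.41. None of these 3 passed the limma test (adjusted p between 0.846 and 0.965). Of the 12 measured class I presentation genes as a whole 0 passed and 0 had an unadjusted p under 0.05, with average deviations of 0.07, -0.01, 0.11, -0.07 and -0.10. The difference between class I and class II genes was not tested.

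**Figure D3:**
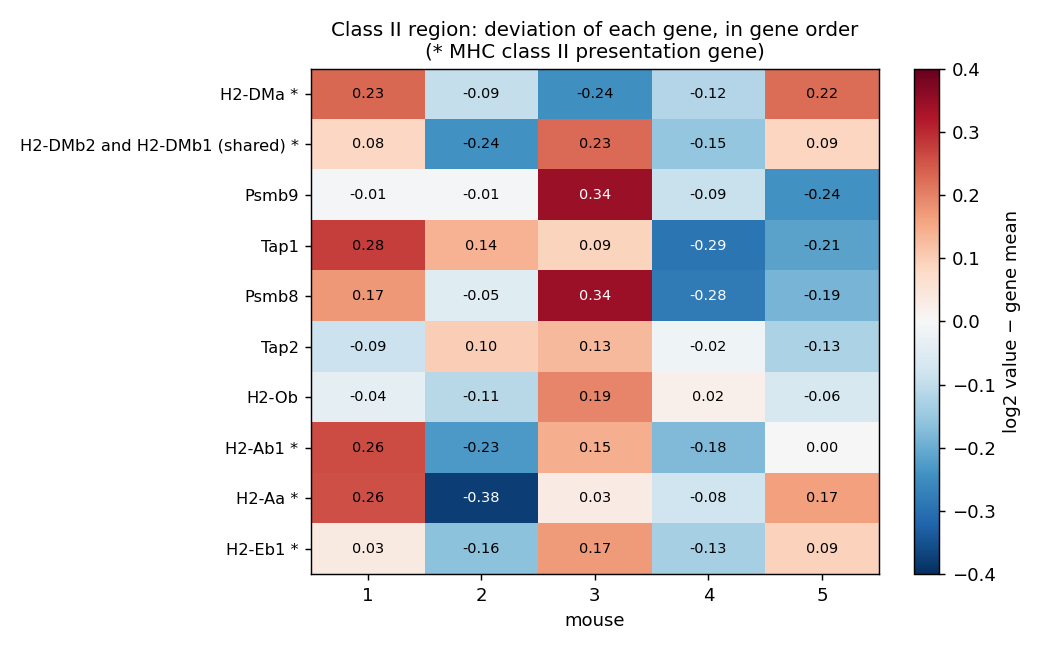
Deviation of each measured gene of the class II region from its own mean (log2) in the 5 mice, in chromosomal order, with class II presentation genes marked by an asterisk and the probe set shared by H2-DMb2 and H2-DMb1 given once. In mouse 5 the genes with an asterisk lie at or above their means and the neighbours Psmb9, Tap1, Psmb8, Tap2 and H2-Ob below theirs. H2-Ob, a DO chain gene, is itself a class II gene outside the set described here.

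Markers of the cells that carry class II molecules were read on the same arrays. Of 15 Kupffer cell markers all were measured, 14 exceeded the floor in all livers and 0 passed the limma test. At an unadjusted p under 0.05 there were 7, against 6.34% of all probe sets. Their average deviation was 0.29, -0.16, -0.02, -0.18 and 0.06 in mice 1 to 5, and their summed linear signal lay between 7635 in mouse 2 and 10246 in mouse 1, a 1.34-fold span. The summed signal of the 6 class II genes lay between 1797 and 2407 in the same mice, also 1.34-fold. Adgre1, which encodes a surface antigen of mature macrophages, had 9.24, 8.43, 8.34, 8.20 and 8.47 (limma adjusted p = 0.273), and Timd4, a marker of resident Kupffer cells, had 7.86, 7.04, 6.95, 6.89 and 7.06 (limma adjusted p = 0.367). Both stood apart in mouse 1, where 12 of the 15 markers were highest, against 23.9% of tested genes. Mouse 1 was picked for this count after the values were seen. It was also highest for 6 of 10 stellate cell markers, 4 of 9 sinusoidal endothelial markers and 5 of 12 class I genes. For hepatocyte markers the count was 1 of 10 and for cholangiocyte markers 1 of 6. The Kupffer cell markers are read from the same 5 arrays, so they are not independent of each other. Other markers of the list, given here after their values were seen, were about as high in mouse 5 as in mouse 1 or higher. Vsig4, a complement receptor gene, had 10.81, 10.42, 10.71, 10.54 and 11.08, and C1qb, a complement gene, had 10.35, 9.77, 10.21, 9.90 and 10.34. Marco, a scavenger receptor gene, had 6.67 in mouse 1 and 5.91 to 6.25 in the others. The part of Kupffer cells in the class II values was not tested.

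Of 9 measured markers of monocytes and infiltrating macrophages, 5 exceeded the floor in all livers, and Ccr2, Itgam, F13a1 and Chil3 were below it on every array. Their average deviation was 0.09, -0.16, -0.06, -0.03 and 0.16 in mice 1 to 5, the list closest to the class II average. The root mean square difference was 0.07, against 0.08 for Kupffer cell markers and 0.09 for stellate cell markers. The summed signal of the monocyte and infiltrating macrophage markers lay between 1379 in mouse 4 and 2063 in mouse 1. Gpnmb, a gene of lipid-laden macrophages, had 6.40, 5.81, 5.90, 6.30 and 7.02 (limma adjusted p = 0.213), and the lysozyme gene Lyz2 had 10.57, 9.84, 10.04, 9.71 and 9.97 (limma adjusted p = 0.343). Both had an unadjusted p under 0.05, and 0 of the 5 tested markers of the list passed. The part of these cells in the class II values was not tested. Cx3cr1, a chemokine receptor gene of monocytes, was highest in mouse 3 (6.91) and lowest in mouse 2 (6.59).

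Dendritic and lymphoid markers were mostly dim. Of 15 dendritic cell markers, 6 exceeded the floor in all livers, and Xcr1, Itgae, Clec10a, Itgax, Klrd1 and Mgl2 were below it on every array. Their summed signal spanned 1.09-fold (848 to 923), with average deviations of 0.03, -0.07, 0.06, -0.03 and 0.01. Flt3, a growth factor receptor gene of dendritic cells and progenitors, had 6.33, 6.16, 6.12, 5.66 and 5.76, falling below the floor in mouse 4, and Cd7 and Ccr7 were highest in mice 5 (6.28) and 4 (6.95). Flt3 and Cd7 were the 2 of the 9 tested markers of this list with an unadjusted p under 0.05, and 0 passed.

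Of 12 measured B cell markers, 3 exceeded the floor in all livers, and Cd79a, Ms4a1, Cr2, Fcrla and Fcer2a were below it on every array. Those above it on all 5 were Cd79b, Bank1 and Ighm, while Pax5, Blk and Cd22 exceeded it on 4. The list averaged 0.05, -0.05, 0.12, -0.08 and -0.05, and its summed signal spanned 1.18-fold (662 to 784). The limma test covered 6 of these markers, and 0 passed or had an unadjusted p under 0.05. Cd79b (7.14, 7.11, 7.47, 6.86 and 7.10) was highest in mouse 3, as was Blk (6.30), and Bank1 was highest in mouse 1 (6.84). Of 10 T cell markers 1 exceeded the floor in all livers, and Cd3d, Cd3g, Cd2 and Cd28 were below it on every array. The summed signal of the T cell markers spanned 1.10-fold (529 to 583), and 0 of the 6 tested passed or had an unadjusted p under 0.05. Cd8b1 was highest in mouse 3 (6.00), Cd5 in mouse 5 (5.99) and Bcl11b in mouse 1 (6.36).

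The tissue label was checked against hepatocyte markers. All 10 measured ones exceeded the floor in all livers, and their average deviation stayed between -0.05 and 0.04. Fga, a fibrinogen gene, was the widest of them (10.00 in mouse 5 to 10.69 in mouse 3), followed by Tat (SD 0.14) and Hnf4a (SD 0.13). The 9 sinusoidal endothelial markers averaged between -0.03 and 0.06, with Stab2 highest in mouse 1 (9.61), Lyve1 in mouse 3 (9.20) and Fcgr2b in mouse 5 (10.16). The 10 stellate cell markers averaged 0.12, -0.05, -0.01, -0.08 and 0.02, with Ecm1 (10.80) and Reln (8.82) highest in mouse 1 and Hgf in mouse 5 (7.58). The 6 measured cholangiocyte markers averaged 0.02, 0.10, -0.13, -0.09 and 0.10, with Epcam (5.86 to 6.45), Ddit4l (6.33 to 6.92) and Sox9 (7.21 to 7.77) the widest. In these 4 lists 0 of the tested markers passed the limma test, and Fga and Epcam had an unadjusted p under 0.05. Among the cholangiocyte markers 5 were tested.

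**Figure D4:**
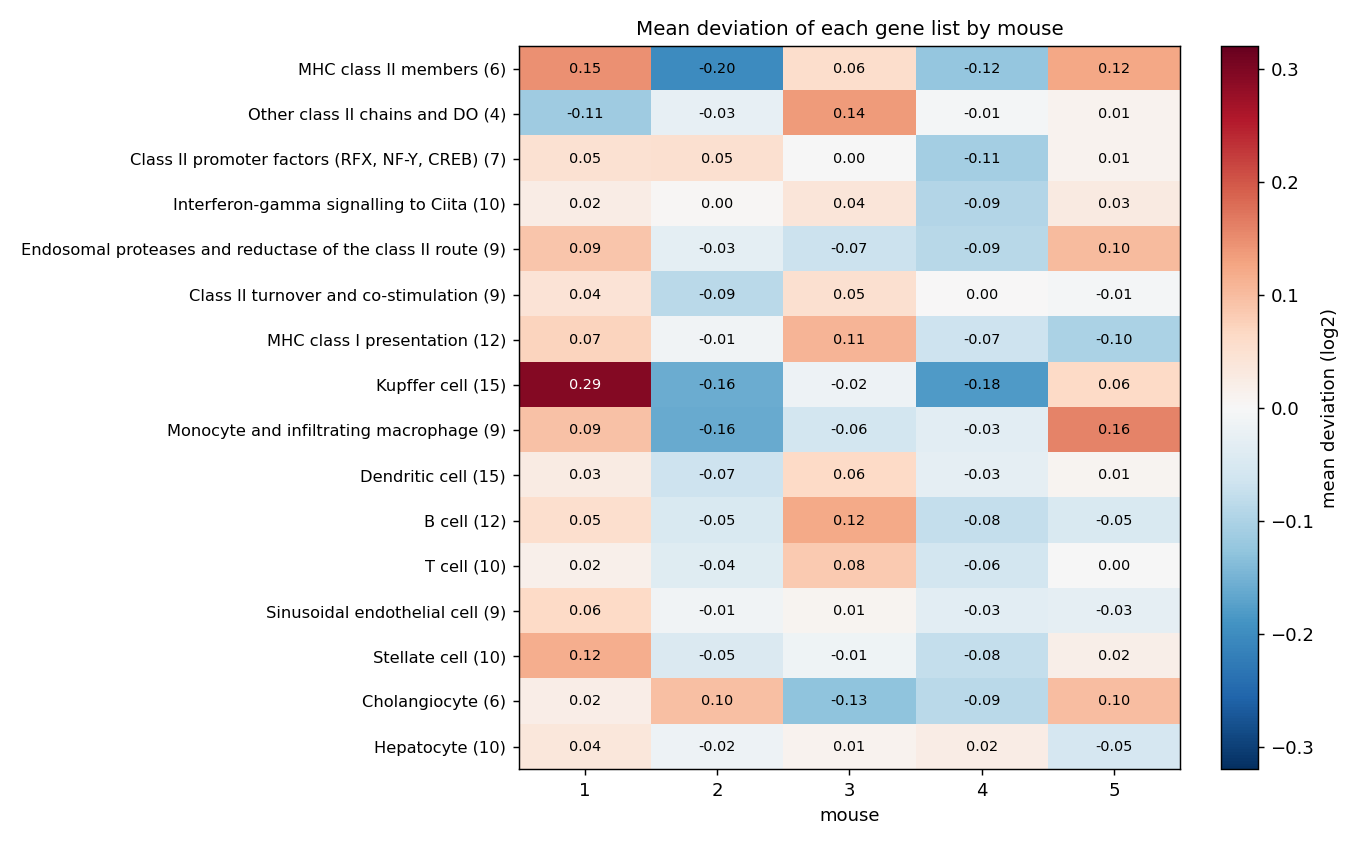
Mean deviation (log2) of each gene list from the gene means in the 5 mice, with the number of measured genes in parentheses and the class II genes in the top row. Class II genes and macrophage lists are negative in mice 2 and 4 and positive in mice 1 and 5. The endosomal, dendritic cell and stellate cell lists have the same signs in these mice. In mouse 3 the signs differ: the class II and dendritic cell averages are both 0.06. The averages there are -0.02 for Kupffer cell, -0.06 for monocyte and infiltrating macrophage, -0.07 for endosomal and -0.01 for stellate cell genes. Hepatocyte and endothelial markers stay between -0.05 and 0.06.

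The genes whose pattern over the 5 mice was most like that of the class II genes were sought among 8989 tested genes whose SD was at least 0.5 times that of the class II average. Likeness was the root mean square difference between the centred values of a gene and the average of the 5 class II genes above the floor (0.18, -0.22, 0.05, -0.15 and 0.14 in mice 1 to 5). Themis2, a signalling gene of macrophages and B cells, was nearest, at a difference of 0.004, with 7.40, 7.01, 7.27, 7.06 and 7.37. Next came Tnfaip3, which encodes an inhibitor of NF-kB signalling (0.02), Tm6sf1 and Cela3b (0.03 each), Otub2 and Coro2b (0.03 each), Selplg, the gene of the P-selectin ligand of leukocytes (0.04), Vsir, an immune checkpoint gene (0.04), Cyp2c70, a bile acid hydroxylase gene of hepatocytes (0.04), and Vgf (0.04). The median difference over the 8989 genes was 0.19. These 10 genes were selected for their likeness, so it is given as a description.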

How the data were processed

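The authors deposited 1 log2 value per probe set and array for 5 livers. RMA and the program Affymetrix Expression Console 1.2 are named per the submitters' processing notes; settings, genome build and the arrays that entered the normalization are not given in the sources used here. The table held 35556 probe sets, of which 21789 had exactly 1 gene symbol, 1621 several and 12146 none. Of those with 1 symbol, 21698 matched the RefSeq gene table of GRCm38.p6 by gene ID, and 0 names changed. Array medians lay between 6.22 and 6.31, and pairs of arrays correlated at r between 0.971 and 0.993 (Pearson, across probe sets).

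Probe sets were tested where their mean exceeded 5.77, the 95th percentile of the means of the receptor probe sets. limma 3.58.1 (lmFit, fitFDistRobustly with the mean as covariate) was run in R 4.3.3 with statmod 1.5.0, with 6.21 prior degrees of freedom. It was also run on simulated data, where it missed many of the genes given a raised SD. Averages were computed in Python 3.11.15 with pandas 2.3.3. The precision is limited by the number of arrays, and technical spread is part of the spread between mice. Alternatives were other normalizations, filters, variance fits and probe set summaries, and each mouse left out. From each list, genes passing the test and the 3 tested genes with the largest SD were named, with H2-Ea, H2-Oa, H2-Ob and the 10 nearest patterns; other genes were named after their values were seen. Patterns of predicted genes, small RNAs, ribosomal protein and immunoglobulin segment genes were left out, and so were those with an SD under 0.5 times that of the class II average. The genes, lists and tests were chosen with earlier results of these data known.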

Additional observations from a re-analysis of the deposited data

Results flagged for a closer look

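In 7 of 78 gene patterns and list averages looked at, the highest or lowest liver stood apart from the other 4 by more than 0.71 of the whole range (Dixon's critical ratio for 5 values), which chance alone gives in about 1 of 20. None of them is one of the 6 class II genes. Most of the genes looked at had been named for a large SD in their list or for likeness to the class II average. The list averages also contain some of these genes. The rate of 1 of 20 holds for genes picked without regard to their values, so the count of 7 cannot be read against it. Timd4 had 7.86 in mouse 1, with 7.06 the next highest, and Adgre1 had 9.24 in mouse 1, with 8.47 the next highest. Blk had 6.30 in mouse 3, against at most 5.995 in the others. Hnf4a was lowest in mouse 3 at 11.34, against 11.61 or more in the others, and Bcl11b lowest in mouse 4 at 5.93, against 6.24 or more. H2-Ea was lowest in mouse 1 at 4.33, with all values below the floor. The interferon gamma list had an average deviation of -0.0943 in mouse 4, against 0.0033 or more in the others. That average includes genes too dim for the limma test. Over the 7 tested genes of the list it was 0.085, -0.05, 0.0243, -0.115 and 0.0556 in mice 1 to 5, with mouse 4 less far apart. The average over all tested genes was also lowest in mouse 4, at -0.06.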

How the results depend on the processing

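Under all 13 alternatives 0 of the 6 class II genes passed (5 were tested with the filter on every array, which removed Ciita), and the lowest adjusted p was 0.575, for H2-Aa without mouse 5. The average of the class II genes had a range between mice of 0.35 to 0.39 under other scalings, the median over genes and the restriction to genes above the floor, and of 0.27 (without mouse 2) to 0.35 with 1 mouse left out. At an unadjusted p under 0.05 there were 0 to 2 of the 6. The count of all probe sets that passed limma's test, 52, was 142 with arrays centred on their medians, 31 with the mean of all probe sets of a gene, 29 above the floor on every array, 18 without the robust step, 24 without the trend and 0 over all probe sets with or without a symbol (1385 at an unadjusted p under 0.05). Leaving out 1 mouse gave 0 (without mouse 4, with 864 at an unadjusted p under 0.05) to 69 (without mouse 1), with 34 without mouse 2 30 without mouse 3 and 63 without mouse 5; the cause was not tested. No paired analysis was possible because there is 1 group.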
